A study of Drosophila simulans and Drosophila melanogaster and Drosophila sechellia with 48 samples.

Results

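Expression of 6 genes of cuticular hydrocarbon synthesis was followed across males of 7 Drosophila species: the fatty acid desaturases Desat1, Desat2 and Fad2, the fatty acid elongases eloF and bond, and the cytochrome P450 Cyp4g1. Members were taken by gene symbol from the annotation of the array, and each of the 6 had 1 probe set. They are 6 of 12367 features tested, of which 10844 carried the name of 1 gene. Whole males, 3 days after pupation and 20 to a sample, were raised on cornmeal medium with yeast under continuous light, with no treatment that differed between groups. RNA was hybridised to 48 Affymetrix arrays, 3 for each of 16 groups. The groups were D. santomea, D. yakuba and D. teissieri (the yakuba complex), D. sechellia, D. mauritiana, 10 crosses of D. simulans, and D. melanogaster. D. sechellia, D. mauritiana and D. simulans are sister species, which with D. melanogaster form the melanogaster complex. Each D. simulans cross joined a pair of 10 lines of 1 population, so that its flies were heterozygous. D. melanogaster samples drew evenly on 10 isogenic lines of a wild population, which were likewise crossed in a round-robin design. Each of the 5 species collected later (all but D. simulans and D. melanogaster) was represented by 1 line. Species and line therefore cannot be told apart in those 5. Where any of those 5 is set against D. simulans or D. melanogaster, species and time of collection cannot be told apart either.

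Cuticular hydrocarbons are waxy chains that coat the fly, limit water loss and act as contact pheromones. They are made in oenocytes, cells below the abdominal cuticle. Fatty acids are synthesised, given double bonds by desaturases and lengthened by elongases, then reduced to aldehydes and turned into hydrocarbons by Cyp4g1. In D. melanogaster, Fad2 (also called desatF) and eloF act mainly in females, which carry long chains with double bonds in pairs (dienes), and males carry mostly chains with a single double bond.

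Values are MAS5 signals (array brightness on a linear scale) as deposited, and log2 signals after quantile normalization, which gives every array the same distribution. Means are given ± SD, and n is 3 arrays for a species and 30 for D. simulans. A difference passed the test at an adjusted p of at most 0.05 in limma, with adjustment over all 12367 features. The estimate of the spread of each feature was shared by all 16 groups. A call on a pair of species therefore does not rest on the spread of that pair alone. The probes match D. melanogaster. In another species, a signal changed by a diverged sequence, in either direction, and a difference in the level of RNA cannot be told apart, nor can signal that a probe set takes up from a related gene. In RNA of whole flies, fewer oenocytes and less RNA per cell cannot be told apart either.

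A pair of arrays labelled as males carried transcripts of females. Over 14 measured genes of yolk and eggshell, the mean log2 signal was 11.79 in D. sechellia replicate 1 and 11.70 in replicate 3 of D. simulans cross 37X43. It lay between 6.43 and 8.99 in the other 46 arrays. For 8 of the 14 genes these 2 arrays were the highest of all. Of 6 accessory gland genes, markers of males, the mean was 7.82 in D. sechellia replicate 1, against 8.03 and 8.41 in replicates 2 and 3, and 8.43 in cross 37X43 replicate 3, against 8.98 and 9.53 in its replicates 1 and 2. Both means lay within the 4.87 to 12.49 of the other 46 arrays. Testis genes averaged 11.11 and 11.90 in the same 2 arrays, within the 10.52 to 13.72 of the others. The source of the yolk and eggshell signal was not tested. Most calls named for Fad2, Desat2 and Cyp4g1 in D. sechellia, and the counts of this species against its sister species, are given with and without these 2 arrays. Arrays of one group correlated at 0.66 to 0.93 over all features, and the lowest values were in D. yakuba and D. santomea.

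All 6 genes differed among the 7 species by the limma F-test, where 66% of all features did. Adjusted p was 1.08e-14 for Desat2, 2.55e-14 for Cyp4g1, 5.62e-06 for bond, 0.00227 for Desat1, 0.00497 for Fad2 and 0.0297 for eloF. Of 126 tests of a gene between a pair of species, 45 passed, where 21.6% of tests passed over all features. Cyp4g1 passed in 15 of 21 pairs, bond in 11, Desat2 in 9, Fad2 in 5, eloF in 4 and Desat1 in 1. Without both arrays with high yolk genes these counts were 13, 12, 9, 3, 4 and 2 in the same order of genes. For eloF the F-test did not pass without D. melanogaster replicate 1 (adjusted p = 0.15) or replicate 2 (adjusted p = 0.137), without D. yakuba replicate 2 (adjusted p = 0.0533), nor with arrays weighted by quality (adjusted p = 0.21).

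**Figure D1:**
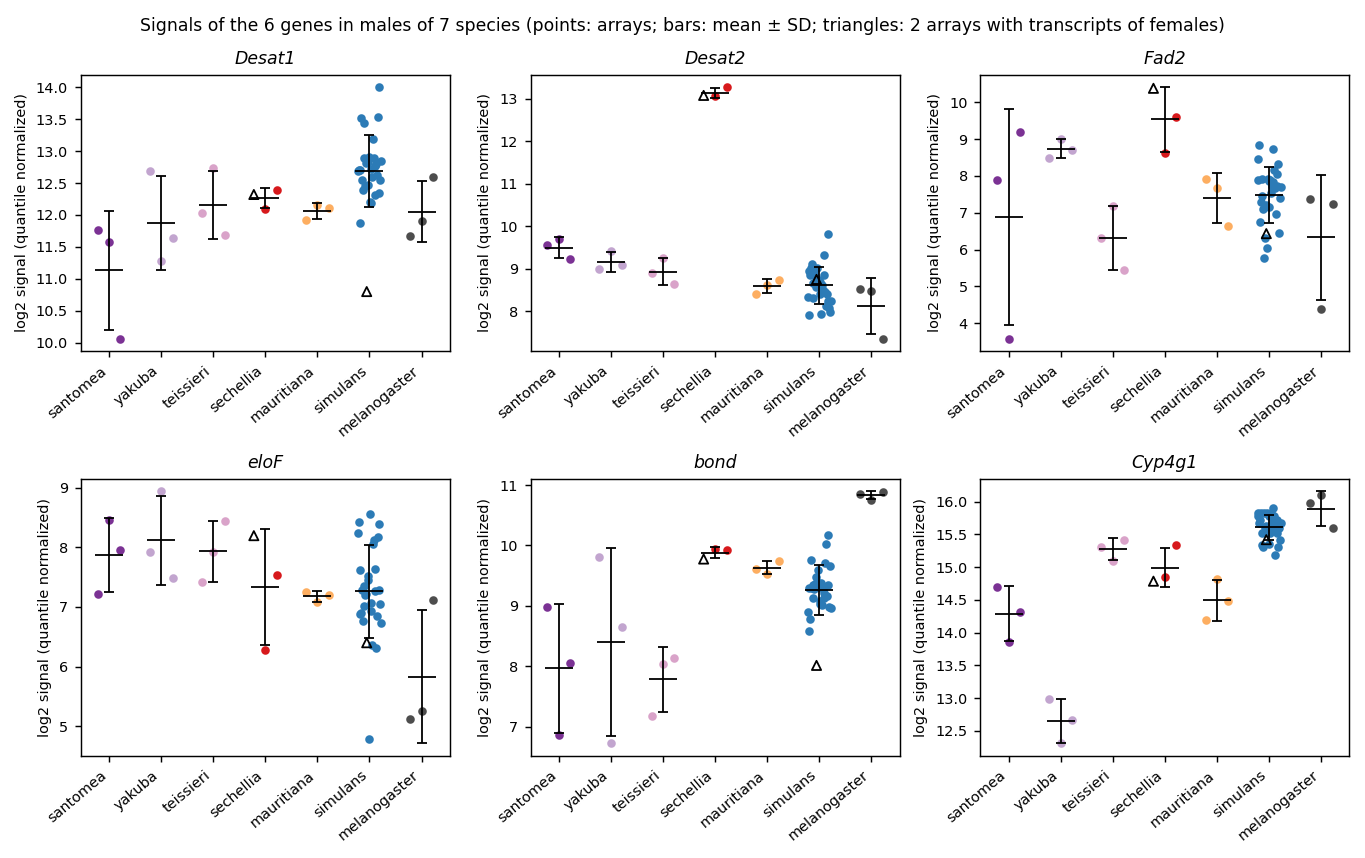
Log2 signal (quantile normalized, vertical axis) of each of the 6 genes in every array of 7 species (horizontal axis); points are arrays, bars are the mean ± SD (n = 3, and 30 for D. simulans), and triangles are the 2 arrays with high yolk and eggshell genes. The 3 arrays of D. sechellia stand above all others for Desat2, those of D. melanogaster above all others for bond, and those of D. yakuba below all others for Cyp4g1.

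Desat2 gave the largest difference of the 6 genes. It encodes a desaturase that acts on saturated fatty acids, and in D. melanogaster some populations lack its activity through a change in its promoter. Its signals were 7689, 8378 and 9805 in D. sechellia, against 311, 364 and 407 in D. mauritiana. In D. simulans they were 229 at the lowest, 388 at the median and 880.3 at the highest. All 3 arrays of D. sechellia lay far above every array of both sister species. D. sechellia was 23.3-fold higher than the mean of D. simulans and D. mauritiana (log2 difference 4.54, SE 0.27, limma adjusted p = 2.6e-15). In this comparison 6.17% of all features passed (2.78% higher, 3.39% lower), and of the 6 genes Desat2, while Fad2 lay at the threshold (adjusted p = 0.0514). Without each array in turn the difference stayed between 4.47 and 4.58, and without both arrays with high yolk genes it was 24.0-fold (log2 difference 4.58, adjusted p = 2.04e-12). Against D. mauritiana alone, which was collected in the same period, it was 23.4-fold (log2 difference 4.55, adjusted p = 2.3e-12). Without both arrays with high yolk genes that difference was 24.1-fold (log2 difference 4.59, adjusted p = 2.3e-10).

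Outside D. sechellia, Desat2 signals ran from 155 to 897. The signals were 783, 897 and 617 in D. santomea, 497, 824 and 546 in D. yakuba, and 487, 642 and 445 in D. teissieri. In D. melanogaster they were 376, 362 and 155. In deposited signal the highest array outside D. sechellia, at 897, was of D. santomea, and the 3 arrays of D. teissieri lay within the range of D. simulans. After normalization the highest was of D. simulans, at 9.82. The means on the log2 scale ran from 13.14 ± 0.11 in D. sechellia through 9.49 ± 0.24 in D. santomea, 9.16 ± 0.23 in D. yakuba, 8.93 ± 0.32 in D. teissieri, 8.61 ± 0.43 in D. simulans and 8.59 ± 0.17 in D. mauritiana to 8.11 ± 0.66 in D. melanogaster. In this order only D. sechellia and D. santomea, its neighbour, passed the test (3.65, limma adjusted p = 3.83e-10). Away from neighbours, D. santomea was 1.84-fold higher than D. simulans (adjusted p = 0.00587) and 2.60-fold higher than D. melanogaster (adjusted p = 0.00186), and D. yakuba was 2.07-fold higher than D. melanogaster (adjusted p = 0.0168). The call against D. simulans was lost without D. santomea replicate 2 (adjusted p = 0.0524), and that of D. yakuba without its replicate 2 (adjusted p = 0.0626) or D. melanogaster replicate 3 (adjusted p = 0.173). All 6 pairs with D. sechellia passed for Desat2, where 18.4% of tests in these pairs did over all features.

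Fad2, the desaturase that adds the second double bond of dienes in D. melanogaster females, was dim and varied widely between arrays of one species. Its signals were 1391, 386 and 774 in D. sechellia, against 218, 189.96 and 96.0 in D. mauritiana. In D. simulans they were 53.7 at the lowest, 188 at the median and 482 at the highest. D. sechellia replicates 1 and 3 lay above every D. simulans array, and replicate 2, at 386, lay within their range. Replicate 1, the highest, is the array with high yolk and eggshell genes. D. sechellia was 4.13-fold higher than D. simulans (log2 difference 2.05, SE 0.61, adjusted p = 0.0238). Without replicate 1 the difference was 1.62 with an adjusted p of 0.266, and without replicate 3 it was 2.02 with an adjusted p of 0.0915. Against the mean of D. simulans and D. mauritiana it was 2.09 (adjusted p = 0.0514). It passed in 8 of 11 alternatives (adjusted p 0.0011 to 0.0389), and without both arrays with high yolk genes it was 1.66 (adjusted p = 0.377).

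The other species gave Fad2 signals of 240.1, 24.1 and 599 in D. santomea and 342, 674 and 424 in D. yakuba. They were 66.9, 129 and 59.7 in D. teissieri and 183, 23.2 and 144 in D. melanogaster. The arrays of D. yakuba were all above those of D. teissieri and D. melanogaster, while D. santomea spanned nearly the whole range. D. yakuba was 5.32-fold higher than D. melanogaster (log2 difference 2.41, adjusted p = 0.0228), and D. sechellia 9.21-fold higher (3.20, adjusted p = 0.00579). D. santomea was 6.28-fold lower than D. sechellia (-2.65, adjusted p = 0.0153), and D. teissieri 9.35-fold lower (-3.22, adjusted p = 0.00368). D. santomea was 2.002-fold lower than D. sechellia without D. santomea replicate 2, the array at 24.1 (adjusted p = 0.325), 13.9-fold lower without its replicate 3, and 4.69-fold lower without both arrays with high yolk genes (adjusted p = 0.0865). Without D. melanogaster replicate 2, the array at 23.2, D. yakuba was 2.71-fold higher than D. melanogaster (adjusted p = 0.217) and D. sechellia 4.70-fold higher (adjusted p = 0.0879). The call of D. yakuba was also lost without its replicate 2 (adjusted p = 0.0624). Without the same high-yolk arrays D. sechellia was 6.88-fold higher than D. melanogaster (adjusted p = 0.0493) and D. teissieri 6.99-fold lower than D. sechellia (adjusted p = 0.0323), and 3 of the 5 pairs passed. No neighbours in the order of the 7 means passed the test, from D. sechellia (9.53 ± 0.88) and D. yakuba (8.74 ± 0.26) at the top to D. melanogaster (6.33 ± 1.69) and D. teissieri (6.31 ± 0.87) at the bottom.

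**Figure D2:**
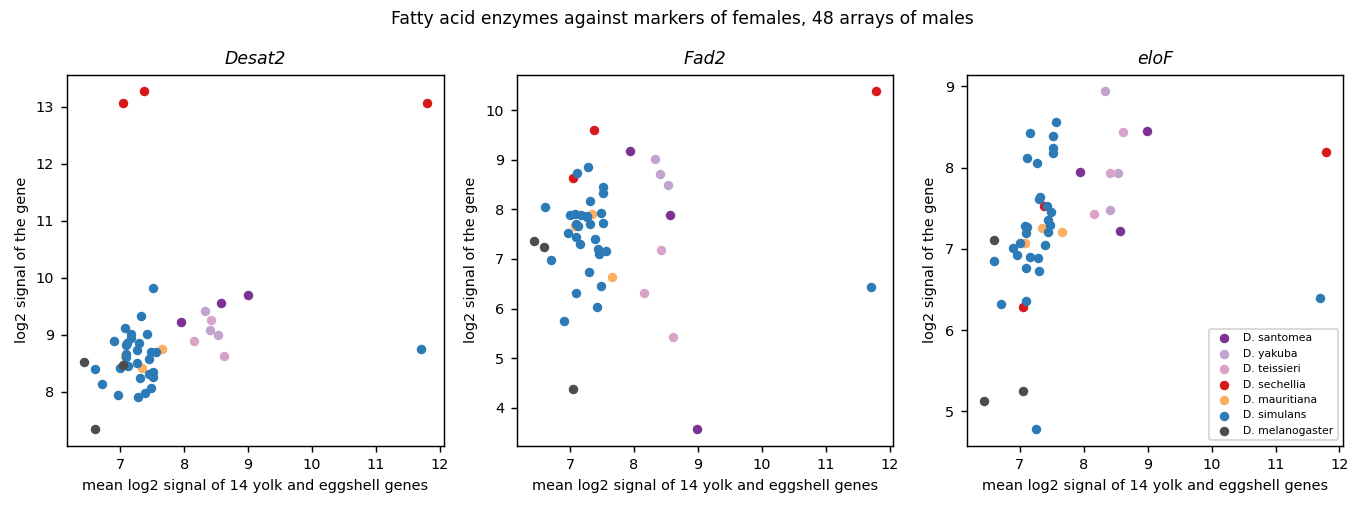
Log2 signal of Desat2, Fad2 and eloF (vertical axes) against the mean log2 signal of 14 yolk and eggshell genes (horizontal axes) in 48 arrays, coloured by species. D. sechellia replicate 1 and cross 37X43 replicate 3 lie at 11.79 and 11.70 on the horizontal axis; the first has the highest Fad2 signal of its species, and its Desat2 signal lies beside those of the other 2 D. sechellia arrays.

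eloF, an elongase that lengthens fatty acids toward the long dienes of D. melanogaster females, was dim in all species and lowest in D. melanogaster. Its signals were 24.4 at the lowest, 141 at the median and 375 at the highest in D. simulans, against 38.4, 41.3 and 133 in D. melanogaster. Replicate 3 of D. melanogaster lay near the D. simulans median, and the other 2 arrays were above only the lowest D. simulans array. D. simulans was 2.70-fold higher than D. melanogaster (log2 difference 1.43, SE 0.47, adjusted p = 0.0278). This call was lost without D. melanogaster replicate 1 (adjusted p = 0.235) or replicate 2 (adjusted p = 0.208) and with arrays weighted by quality (adjusted p = 0.0608). Without replicate 3 the difference was 2.07.

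In the yakuba complex eloF was higher. The signals were 150.1, 422 and 241 in D. santomea, 217, 648 and 164 in D. yakuba, and 149, 229.6 and 395 in D. teissieri. They were 302, 68.4 and 182 in D. sechellia and 132, 126 and 143 in D. mauritiana. In deposited signal all 9 arrays of the yakuba complex exceeded those of D. mauritiana and D. melanogaster, but they overlapped D. sechellia and D. simulans. After normalization the lowest of the 9, D. santomea replicate 1 at 7.22, lay within the D. mauritiana arrays (7.08 to 7.26). The yakuba complex was 2.10-fold higher than the melanogaster complex (log2 difference 1.07, adjusted p = 0.00622). Against D. sechellia and D. mauritiana alone, collected in the same period, the difference was 0.72 (adjusted p = 0.163). With arrays weighted by quality the difference between complexes had an adjusted p of 0.0615. The 4 pairs that passed for eloF were those of D. melanogaster with D. santomea, D. yakuba, D. teissieri and D. simulans, and 25.6% of tests in pairs with D. melanogaster passed over all features. Without D. melanogaster replicate 1 or replicate 2, or with only the arrays of each pair in the fit, 1 pair passed, and with arrays weighted by quality 0 did. Without D. santomea replicate 2 the pair of D. santomea was lost (adjusted p = 0.057). The highest eloF signal of D. sechellia, 302, was again in replicate 1.

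bond was highest in D. melanogaster, where eloF was lowest. It encodes an elongase needed for a long-chain pheromone that D. melanogaster males transfer to females at mating, and for cell division in spermatocytes. Its signals were 304 at the lowest, 615 at the median and 1124 at the highest in D. simulans, against 1794, 1648 and 1931 in D. melanogaster. All 3 D. melanogaster arrays lay above every array of the other species. D. simulans was 2.98-fold lower than D. melanogaster (log2 difference -1.58, SE 0.36, adjusted p = 0.00169). With eloF it was 1 of 2 genes that passed in this comparison, where 19.2% of all features did (10.1% higher, 9.1% lower).

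In the yakuba complex bond fell below most of the melanogaster complex. The signals were 531, 135.4 and 261 in D. santomea, 908, 135.4 and 406 in D. yakuba, and 122, 253 and 325 in D. teissieri. They were 912, 1017 and 984 in D. sechellia and 735, 693 and 811 in D. mauritiana. D. yakuba spread widest, with 1 array near the level of D. sechellia and 1 below all arrays of the melanogaster complex. The yakuba complex was 3.61-fold lower than the melanogaster complex (log2 difference -1.85, adjusted p = 1.29e-07), and 3.26-fold lower than D. sechellia and D. mauritiana alone (-1.71, adjusted p = 4.11e-05). The means ran from 10.83 ± 0.06 in D. melanogaster, 9.88 ± 0.09 in D. sechellia, 9.63 ± 0.11 in D. mauritiana and 9.25 ± 0.41 in D. simulans to 8.40 ± 1.56 in D. yakuba, 7.96 ± 1.07 in D. santomea and 7.78 ± 0.53 in D. teissieri. No neighbours in that order passed the test, while 11 of the 21 pairs did, among them all 3 species of the yakuba complex against D. sechellia and against D. melanogaster. D. yakuba minus D. sechellia was -0.65 without D. yakuba replicate 2 (adjusted p = 0.327) and -2.18 without its replicate 1, and the call was also lost without D. sechellia replicate 2 (adjusted p = 0.0619) or replicate 3 (adjusted p = 0.0545).

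Cyp4g1, the decarbonylase of the last step, was bright in every array and stood apart in D. yakuba. Its signals were 49246, 13765 and 34566 in D. santomea, against 9168, 3203 and 6459 in D. yakuba. They were 79965, 68924 and 68608 in D. teissieri. All arrays of D. yakuba lay below all arrays of every other species, and D. teissieri, of the same complex, was among the brightest. D. santomea was 3.10-fold higher than D. yakuba (log2 difference 1.63, SE 0.25, adjusted p = 0.000107), the only 1 of the 6 genes to pass between these sister species, where 5.05% of all features did (2.64% higher, 2.42% lower). With only the arrays of both species in the fit the same difference had an adjusted p of 0.877, and 1 feature in all passed. D. yakuba was 6.13-fold lower than D. teissieri (-2.62, adjusted p = 8.77e-09) and 9.40-fold lower than D. melanogaster (-3.23, adjusted p = 3.15e-12), and all 6 pairs with D. yakuba passed, where 21.5% of tests in these pairs did over all features. These folds depended on the scaling. With no normalization between arrays D. santomea was 4.98-fold higher than D. yakuba (adjusted p = 0.000417), and D. yakuba was 12.6-fold lower than D. teissieri. With median centring these folds were 4.97 and 13.5, and with cyclic loess 4.58 and 10.2.

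In the melanogaster complex the Cyp4g1 signals were 21629, 21389 and 32953 in D. sechellia and 22234, 37007 and 31671 in D. mauritiana. They were 27922 at the lowest, 42280.2 at the median and 83239.7 at the highest in D. simulans. In D. melanogaster they were 69551, 81791 and 29697. The 4 species overlapped in their deposited signals. On the normalized scale D. melanogaster (15.89 ± 0.26) and D. simulans (15.61 ± 0.19) were highest, followed by D. teissieri (15.27 ± 0.16), D. sechellia (14.99 ± 0.30), D. mauritiana (14.50 ± 0.31), D. santomea (14.29 ± 0.42) and D. yakuba (12.66 ± 0.34). Only D. santomea and D. yakuba differed among neighbours.

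The order of Cyp4g1 above D. yakuba depended on how the arrays were scaled. D. teissieri took rank 3 after quantile normalization, rank 2 with cyclic loess (15.77) and rank 1 with no normalization between arrays (16.14) or with arrays centred on their medians (16.17). D. yakuba was last in each of these. D. sechellia was lower than D. simulans (log2 difference -0.62, adjusted p = 0.0248), but the call was lost with cyclic loess (adjusted p = 0.149), without normalization (adjusted p = 0.0726), with median centring (adjusted p = 0.115) and without both arrays with high yolk genes (adjusted p = 0.22), and also without D. sechellia replicate 1 (adjusted p = 0.239) or replicate 2 (adjusted p = 0.166). With median centring 9 of the 21 pairs passed for Cyp4g1, and 7 did with only the arrays of each pair in the fit.

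**Figure D3:**
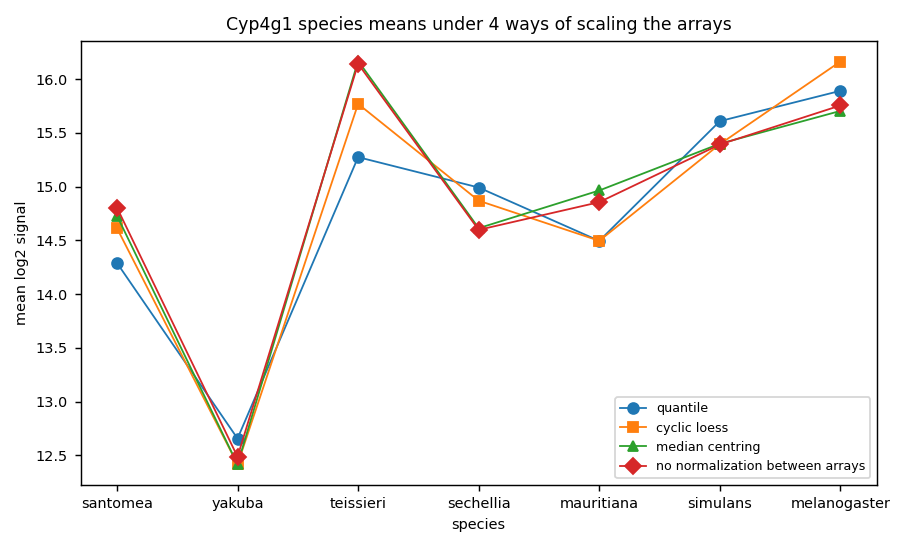
Mean log2 signal of Cyp4g1 (vertical axis) in 7 species (horizontal axis) under 4 ways of scaling the arrays (lines; n = 3 arrays a species, 30 for D. simulans). D. yakuba is lowest under all 4 (12.66 after quantile normalization), while D. teissieri lies at 15.27 after quantile normalization and at 16.17 with median centring.

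Desat1 encodes the desaturase that supplies fatty acids with 1 double bond, and is expressed in many tissues besides oenocytes. Its signals were 3302, 2500.0 and 1107 in D. santomea, against 1664 at the lowest, 6530.5 at the median and 19753 at the highest in D. simulans. All D. santomea arrays lay below the D. simulans median, and replicate 3 lay below its lowest array. That lowest array was cross 37X43 replicate 3, which had high yolk genes. D. santomea was 2.93-fold lower than D. simulans (log2 difference -1.55, SE 0.33, adjusted p = 0.000347). This was the 1 pair that passed, and 2 or 3 pairs did in 8 of 11 alternatives.

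The remaining Desat1 signals were 7159.9, 1829 and 3235 in D. yakuba and 4218, 7061 and 2875 in D. teissieri. They were 4660.2, 4428 and 5540.4 in D. sechellia, 4289.6, 5349 and 4826 in D. mauritiana, and 3172, 3753 and 6337 in D. melanogaster. These 5 species overlapped, and D. yakuba spread over the range of all of them. Means were lowest in D. santomea (11.14 ± 0.93) and highest in D. simulans (12.69 ± 0.57), and no neighbours in the order of the 7 passed the test.

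Between complexes, 5 of the 6 genes passed the test, 1 higher and 4 lower in the yakuba complex, where 49.8% of all features passed (25.3% higher, 24.5% lower). The median difference was -0.48 over the 6 genes and 0.08 over all features. eloF was higher and bond lower, as above. Cyp4g1 was 2.25-fold lower in the yakuba complex than in the melanogaster complex (-1.17, adjusted p = 1.85e-09), with D. yakuba at 12.66 and D. teissieri at 15.27. Against D. sechellia and D. mauritiana alone it was 1.59-fold lower (-0.67, adjusted p = 0.00116), a call that was lost without normalization (-0.25, adjusted p = 0.454), with median centring (-0.35, adjusted p = 0.332), with cyclic loess (-0.42, adjusted p = 0.111) and with only these arrays in the fit (adjusted p = 0.0534).

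The 2 other calls between complexes were small. Desat1 was lower in the yakuba complex (-0.55, adjusted p = 0.0471) and lost the call without 26 of the 48 arrays, each left out alone, where its adjusted p reached 0.176. Desat2 was lower (-0.42, adjusted p = 0.0461) and lost it without 23 of them, and without both arrays with high yolk genes (adjusted p = 0.0557). It was lost as well with no normalization (-0.29, adjusted p = 0.18), median centring (-0.35, adjusted p = 0.0943), cyclic loess (-0.27, adjusted p = 0.225) and array weights (adjusted p = 0.076). For Desat2 this direction is that of D. sechellia alone. The means of all 3 species of the yakuba complex, 8.93 to 9.49, lay above those of D. simulans, D. mauritiana and D. melanogaster, 8.11 to 8.61. Yolk and eggshell genes averaged 7.94 to 8.99 in the arrays of the yakuba complex, against 6.43 to 7.66 in those of the melanogaster complex other than the 2 described, and the part of this in the differences between complexes was not tested. Within the later collection 3 of the 6 genes passed, all lower in the yakuba complex (Desat2, bond and Cyp4g1), where 39.3% of all features did (18.4% higher, 21% lower).

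Within D. simulans no gene of the 6 differed among the 10 crosses by the limma F-test, where 0.558% of all features (69) passed and 1070 had an unadjusted p of at most 0.05. Adjusted p ranged from 0.88 for Desat1 to 1 for Fad2, eloF, bond and Cyp4g1. In 60 tests of a gene in 1 cross against the other 9, none passed after adjustment by limma over all features (0.131% of such tests did over all features), and 3 had an unadjusted p of at most 0.05, of which 2 were of Desat1 and 1 of Desat2.

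Desat1 ran from 12.03 in cross 37X43 to 13.39 in cross 99X105, a range of 1.36, with an SD of 0.53 between arrays of the same cross. The signals were 5741, 7316 and 1664 in cross 37X43 and 6485, 11795 and 19753 in cross 99X105. The arrays of each cross spread widely, and the low one of cross 37X43 is that with high yolk genes. The same array had the lowest bond signal of D. simulans, 304, against 639 and 707 in the other arrays of its cross.

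Fad2 had the widest range over crosses, 1.75, from 6.65 in cross 37X43 to 8.40 in cross 6X11, with an SD of 0.64 within crosses. Cross 37X43 gave 76.4, 148 and 109 and cross 6X11 gave 384, 240.5 and 482, which did not overlap. These crosses were picked as the lowest and highest of the 10 means. No limma test of Fad2 in 1 cross against the other 9 had an unadjusted p of at most 0.05. eloF ranged over 1.26 with a within-cross SD of 0.81, Desat2 over 0.90 with 0.42, and bond over 0.72 with 0.42. Cyp4g1 ranged over 0.24, from 15.52 to 15.76, with an SD of 0.20 within crosses. That range was narrow only after quantile normalization, being 0.83 with no normalization between arrays, 0.72 with cyclic loess and 0.65 with median centring. The cross with the lowest mean was 99X105 after quantile normalization and 105X6 in the other 3. For Desat2 the mean of the highest cross, 8.99 in 11X36, lay far below the 13.14 of D. sechellia.

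**Figure D4:**
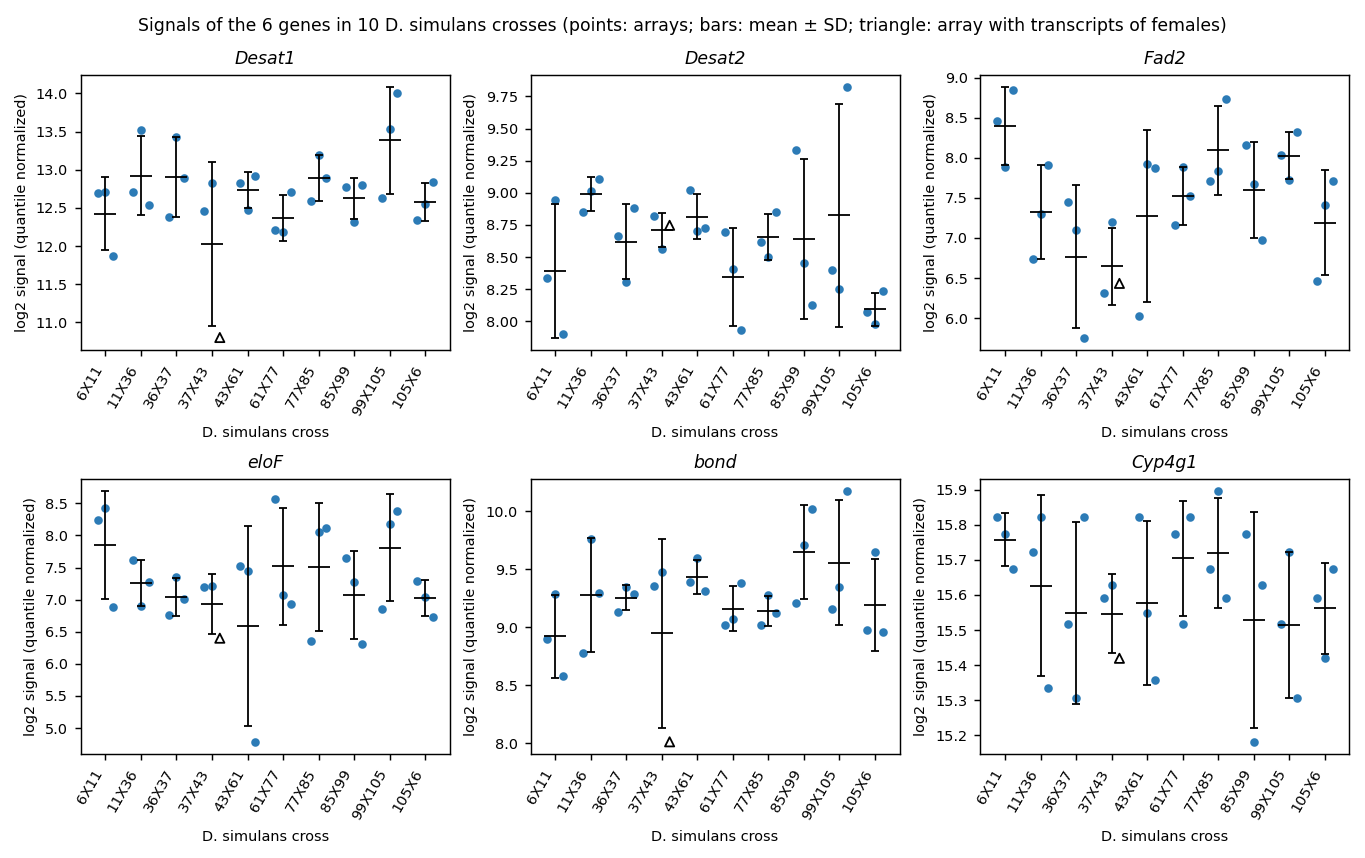
Log2 signal (quantile normalized, vertical axis) of each of the 6 genes in 10 D. simulans crosses (horizontal axis); points are arrays, bars are the mean ± SD (n = 3), and the triangle is replicate 3 of cross 37X43. Fad2 has the widest range of cross means, 1.75, and Cyp4g1 the narrowest on this scale, 0.24, which was 0.65 to 0.83 under other scalings.

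The rest of the pathway was followed in 53 further genes with a probe set, out of 67 names listed by role. Of these, 43 differed among species (81.1%, against 66% of all features). Between complexes 36 of 53 passed (67.9%, against 49.8% of all features), 11 higher and 25 lower in the yakuba complex. The median difference was -0.55 over the 53 genes. Against D. sechellia and D. mauritiana alone, 29 of the 53 passed (54.7%, against 39.3% of all features), 8 higher and 21 lower in the yakuba complex.

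Among elongases and their partners, CG18609, annotated in the elongase family, had the largest difference of the list: its mean was 6.40 in the yakuba complex, against 11.21 in the melanogaster complex (log2 difference -4.80, SE 0.38, adjusted p = 5.31e-13). CG16904 was also lower (-2.06, adjusted p = 3.87e-09). In lipid transport Mtp, which loads lipids onto lipoproteins, was lower (-2.05, adjusted p = 3.32e-06). Arrays of the yakuba complex spread widely for these genes. The SD reached 2.09 for CG18609 in D. santomea, and 1.63 for CG16904 and 2.50 for Mtp in D. yakuba. The higher genes were led by the reductase-family gene CG4770 (1.99, adjusted p = 0.00358), ATPCL, which makes cytosolic acetyl-CoA (1.46, adjusted p = 1.27e-11), and the desaturase-family gene CG8630 (1.34, adjusted p = 9.47e-08). CG4770 was dim, at a mean of 5.56 in the melanogaster complex, and its arrays spread widely. Its SD was 2.93 in D. melanogaster and 1.36 in D. simulans. D. teissieri averaged 8.18 for CG4770, but D. mauritiana, at 6.94, lay near D. santomea (7.16) and D. yakuba (7.31). Of the precursor enzymes ATPCL alone was higher. In the mean of the complex AcCoAS (-2.02), ACC (-0.91), FASN1 and FASN2 were lower in the yakuba complex. AcCoAS and FASN1 were lower there in each species than in any of the melanogaster complex, FASN1 by little (12.63 in D. teissieri, against 12.70 in D. melanogaster). ACC and FASN2 overlapped. ACC was 11.99 in D. teissieri, against 11.75 in D. melanogaster, and FASN2 was 10.95 in D. yakuba, against 10.87 in D. melanogaster.

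**Figure D5:**
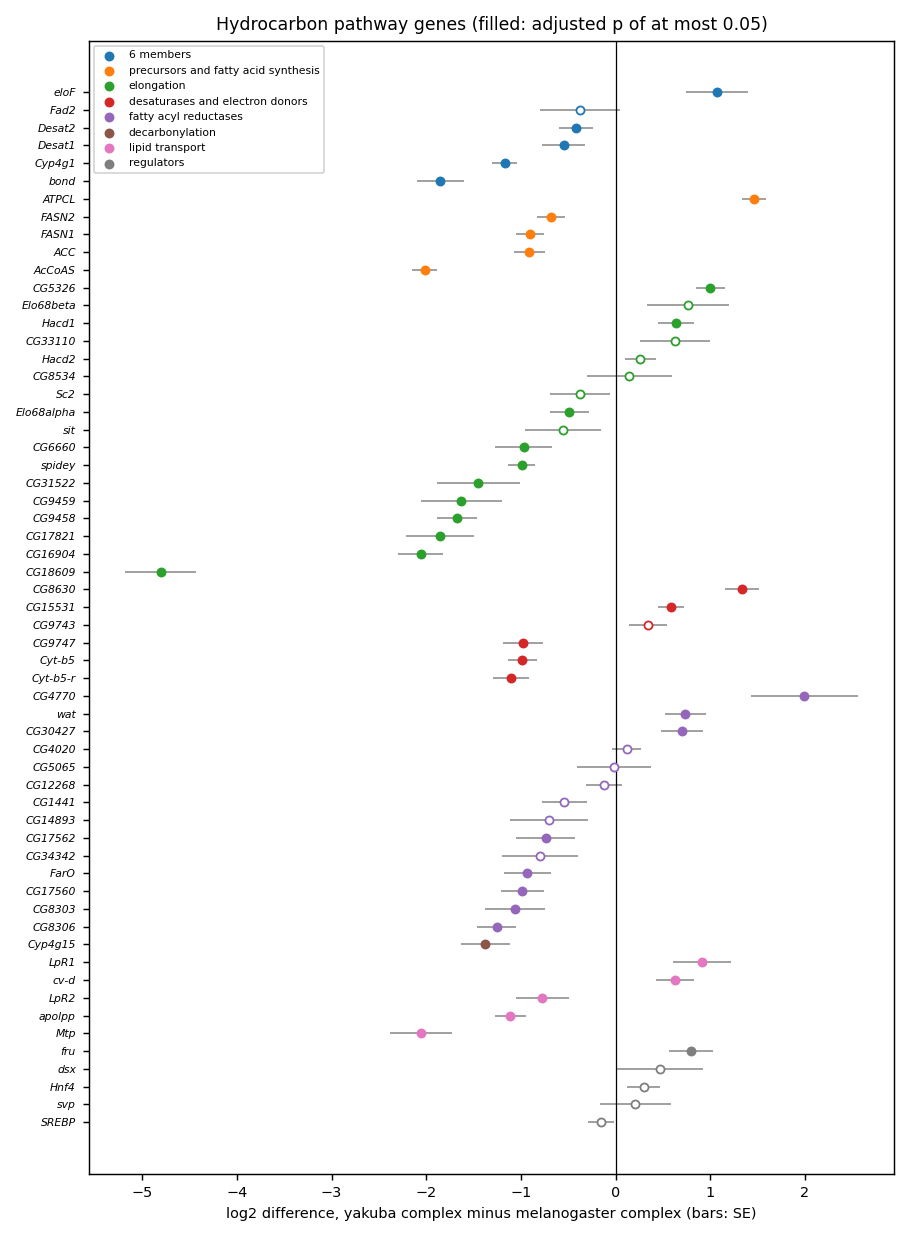
Log2 difference between the yakuba complex and the melanogaster complex (horizontal axis; positive is higher in the yakuba complex; bars are the SE from limma) for the 6 genes and 53 other pathway genes, coloured by role. Filled points passed at an adjusted p of at most 0.05; 25 of the 53 passed as lower and 11 as higher, and CG18609 lies farthest out at -4.80.

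In D. sechellia, against D. simulans and D. mauritiana, 8 of the 53 were higher and 1 lower, 17% against 6.17% of all features. Without both arrays with high yolk genes 6 were higher and 1 lower (13.2%, against 3.04% of all features), and without D. sechellia replicate 2 it was 2 and 1 (5.66%, against 2.7%). The leading genes beside Desat2 were reductases, which turn fatty acyl chains into alcohols or aldehydes. CG17560 averaged 11.72 ± 0.31 in D. sechellia, against 9.53 in its sister species (log2 difference 2.19, adjusted p = 6.05e-05), and FarO 10.32 ± 0.33, against 8.59 (1.73, adjusted p = 0.0033). The elongase-family gene CG9458 was higher by 1.51 (adjusted p = 0.00229), and CG5326, of the same family, was lower (-1.21, adjusted p = 0.000618). Without D. sechellia replicate 2 the calls of FarO (adjusted p = 0.0559) and CG9458 (adjusted p = 0.0542) were lost.

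Between D. simulans and D. melanogaster 12 of the 53 passed (22.6%, against 19.2% of all features), 7 higher and 5 lower in D. simulans. Without D. melanogaster replicate 1 it was 7 (13.2%, against 11.8%), and without replicate 2 it was 5 (9.43%, against 10.7%). FASN2, a fatty acid synthase of oenocytes, was higher by 1.04 (adjusted p = 0.000369), and Cyt-b5, an electron donor for desaturases, by 0.85 (adjusted p = 0.0042, but 0.0516 with cyclic loess and 0.067 without D. melanogaster replicate 2). Hnf4, a nuclear receptor that regulates lipid genes, averaged 11.19 in D. simulans, against 10.19 in D. melanogaster (adjusted p = 0.00338). Lower were CG14893 (-2.94, adjusted p = 0.000443), CG9458 (-1.69, adjusted p = 9.55e-05) and ATPCL (-1.26, adjusted p = 5.65e-06). CG14893 was dim, at 4.55 ± 1.26 in D. simulans and 7.49 ± 0.82 in D. melanogaster.

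Between D. santomea and D. yakuba 1 was higher and 5 were lower in D. santomea (11.3%, against 5.05% of all features). Without D. santomea replicate 2 it was 0 and 2 (3.77%, against 3.11%), without D. santomea replicate 1 it was 1 and 9, and without D. yakuba replicate 2 it was 1 and 13. Among the lower were CG6660 (-2.31, adjusted p = 0.0154), CG9458 (-1.85, adjusted p = 0.00467) and spidey, a reductase of the elongation cycle (-1.60, adjusted p = 0.000438). The higher gene was fru, a regulator of male behaviour (1.59, adjusted p = 0.0339). As a mean over its probe sets fru differed by 0.34 (adjusted p = 0.66). With only the arrays of both species in the fit none of these 4 passed, with adjusted p of 0.879 to 0.881. Without D. santomea replicate 2 the calls of CG6660 (-1.18, adjusted p = 0.215), CG9458 (adjusted p = 0.0511) and fru (adjusted p = 0.144) were lost. That of CG6660 was lost without D. yakuba replicate 1 too (adjusted p = 0.0712), and that of fru without D. yakuba replicate 2 (adjusted p = 0.16) or replicate 3 (adjusted p = 0.0755), with median centring (adjusted p = 0.0752) and with array weights (adjusted p = 0.418), as was that of CG6660 (adjusted p = 0.167).

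The features most like each gene were found by Pearson's r over the 16 group means, 10 of which are D. simulans crosses, and all means come from the same 48 arrays. For Desat2 the features were Vha100-5, a subunit of the vacuolar proton pump (r = 0.92), Acat1, an acetyl-CoA acetyltransferase (0.90), and CG9114 (0.87). Vha100-5 averaged 11.50 and Acat1 12.39 in D. sechellia, each its highest of the 7 species. Over the 10 crosses alone r was 0.27 for Vha100-5, -0.35 for Acat1 and 0.51 for CG9114.

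For bond they were ctp, a dynein light chain (r = 0.96), CG15219 (0.96) and sordd1 (0.94). ctp averaged 6.66 in D. santomea, 7.26 in D. yakuba and 6.41 in D. teissieri, 9.53 in D. sechellia, 9.01 in D. mauritiana, 8.55 in D. simulans and 10.91 in D. melanogaster, the same order as bond. Over the 10 crosses its r with bond was 0.20, against 0.56 for CG15219 and 0.52 for sordd1. For Cyp4g1 they were CG4669, tomboy40 and Bruce (0.93 each), for eloF CG3520 (0.91), Shal (0.88) and CG6462 (0.87), for Desat1 CG3565 (0.90), Cyp309a2 (0.89) and Pdk1 (0.87), and for Fad2 CG2931 (0.83), DCX-EMAP (0.82) and CG15279 (0.80). For these genes r over the 10 crosses ran from 0.22 (Bruce with Cyp4g1) to 0.88 (CG6462 with eloF).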

How the data were processed

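The intensity values are MAS5 signals per probe set, which the authors deposited for 48 arrays of Drosophila 1.0 GeneChips (trimmed mean between 499.3 and 499.7 in each). The methods describe Loess smoothing and a mask of diverged probes. The deposited values cover all 14010 probe sets, and whether they were smoothed is not given in the sources used here. Array number limits the precision. Here, 31 values below 1 were set to 1, log2 was taken, arrays were quantile normalized (array medians had spanned 7.56 to 8.25), 44 controls were dropped, and a gene with several probe sets was represented by the brightest. The 16 groups were fitted in limma 3.58.1 (R 4.3.3) with lmFit and eBayes, the D. simulans crosses weighted equally and Benjamini-Hochberg adjustment. The script was checked on simulated data. D. simulans and D. melanogaster were collected earlier than the other 5 species. The difference between complexes and that of D. sechellia from its sister species were therefore repeated within the later collection. The methods call the replicates of the 5 later species biological. They say no more of how replicates were reared, and p-values measure the spread between these samples. Named were all 6 genes, up to 3 pathway genes in each direction past the threshold with the largest change, and the 3 features most like each gene. AcCoAS, ACC and FASN1 were named after their values were seen. The members, gene lists and tests were chosen with earlier results of these data known. Testis genes (9 measured, means of 10.52 to 13.72 in 46 arrays, 11.11 in D. sechellia replicate 1 and 11.90 in cross 37X43 replicate 3), fat body genes (5 measured, 8.96 to 11.62, then 9.84 and 8.88) and oenocyte genes (4 measured, Cyp4g1 included, 10.32 to 12.38, then 11.35 and 12.11) were also followed. No probe, promoter or protein sequences were used. Alternatives were other scalings, an offset of 32, dim features left out, means over probe sets, array weights, trended robust variances, a replicate block, only the groups compared and each array left out.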

Additional observations from a re-analysis of the deposited data

How the results depend on the processing

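Of the counts of the 6 genes that passed, that of D. sechellia against its sister species was 2 in place of 1 with no normalization, median centring, cyclic loess, an offset of 32, dim features left out, array weights, trended robust variances or only the groups compared. Fad2 joined Desat2 there (log2 difference 1.68 to 2.16, adjusted p 0.0011 to 0.0389). Array weights gave 2 in place of 5 between complexes and 1 in place of 2 for D. simulans against D. melanogaster. With only the groups compared, 0 in place of 1 passed for D. santomea against D. yakuba and 28 in place of 45 in pairs of species. Leaving out 1 array gave 5 to 6 by the species F-test, 3 to 5 between complexes, 3 to 4 within the later collection, 1 to 2 for D. sechellia against its sister species, 1 to 2 for D. simulans against D. melanogaster, 1 to 2 for D. santomea against D. yakuba, 40 to 51 in pairs, and 0 by both tests among crosses. The causes were not tested.

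Differences that turned their sign had not passed the test. Cyp4g1 in D. sechellia minus D. mauritiana was -0.26 with no normalization and -0.35 with median centring, and Desat1 there was -0.077 with median centring. With array weights Fad2 between complexes was 0.11, and eloF in D. sechellia was -0.33 against its sister species, -0.29 against D. mauritiana and -0.37 against D. simulans. Without both arrays with high yolk genes, a setting chosen after the data were seen, these eloF values were -0.33, -0.27 and -0.39, and Cyp4g1 in D. sechellia minus its sister species was 0.039. Leaving out 1 array, Fad2 between complexes ran from -0.76 to 0.17. eloF in D. sechellia ran from -0.32 to 0.64 against its sister species, from -0.27 to 0.68 against D. mauritiana and from -0.36 to 0.60 against D. simulans, each time negative without replicate 1. Against D. simulans it was also negative without D. sechellia replicate 3 (-0.024) and without D. simulans cross 43X61 replicate 3 (-0.017). Cyp4g1 against the sister species ran from -0.23 to 0.043. In D. santomea minus D. yakuba eloF ran from -0.56 to 0.17 and bond from -1.27 to 0.27.

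Over all features, 69 passed among crosses, against 682 with array weights, 201 with only these groups and 58 to 129 without 1 array (129 without D. yakuba replicate 2). For D. sechellia against its sister species 763 passed, against 2816 with array weights, 1466 with only these groups, 334 to 987 without 1 array (342 without D. sechellia replicate 1, 334 without replicate 2) and 376 without both arrays with high yolk genes. For D. santomea against D. yakuba 625 passed, against 147 with array weights, 1 with only these groups, 385 with median centring and 384 to 886 without 1 array (384 without D. santomea replicate 2). For D. simulans against D. melanogaster 2373 passed, but 1456 without D. melanogaster replicate 1 and 1329 without replicate 2. The replicate numbers did not pair the arrays. After the mean of its group was subtracted from each array, arrays of the same number in different groups correlated at a mean of -0.000525 over 360 pairs of arrays. By the mean of these correlations, 15 of 48 arrays were closest to their own number. With the replicate number as a block only Desat2 between complexes changed its call (difference -0.42, adjusted p = 0.0518). The dim signals of Fad2 and eloF limit what 3 arrays a species can show.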
